A study of Homo sapiens with 2 samples.

Results

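The p53 target genes followed here are CDKN1A, MDM2, GADD45A, AEN, TP53INP1, SESN1, ZMAT3, RRM2B and BTG2. They were chosen by name, with every array probe whose symbol in the platform's annotation is one of these 9 genes. Of 24459 gene probes, 9 carried such a symbol. They covered 8 of the 9 genes (18638 genes had a probe in all), with a pair of probes for SESN1 and 1 probe for each of the others. BTG2, an antiproliferative gene of the BTG/TOB family, was not analysed here. All 8 genes belonged to the 16685 genes with a symbol that were above background on at least 1 array.

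The cells were SW620, an established human colon carcinoma line known for mutant p53. They were grown in normal culture in serum-supplemented DMEM. The state of p53 in these cells was not analysed here. The control group was SW620 with a control lentivirus (1 array), and the other group was SW620 expressing CDR1AS (1 array), a circular RNA known for its many miR-7 binding sites. The labels give neither the promoter that drives CDR1AS nor whether the cells were a clone or a pool. The level of CDR1AS was not analysed here, so the values below do not check that label. With 1 array a group there was no replicate error and no test of a difference, so every value below compares these 2 arrays; precision is limited by having so few arrays. In a bulk sample, more RNA in each cell and more cells with that RNA cannot be told apart.

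p53 is a transcription factor that DNA damage and other stresses stabilise. It then induces genes that stop the cell cycle, repair DNA, limit oxidative damage or, in other settings, kill the cell, and it induces its own inhibitor MDM2. GADD45A and SESN2 are also known targets of stress pathways that do not need p53.

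Promoter sequences were taken from RefSeq (GRCh38.p14) to show where the letters of the p53 half-site consensus occur close to a start of these genes. Windows were searched for 6 of the 9 genes (CDKN1A, MDM2, AEN, SESN1, ZMAT3 and BTG2, 12 windows for their alternative starts). No window of GADD45A, TP53INP1 or RRM2B was searched, so the search gives no result for them. For the 9 genes 1 chromosome was left out, so a gene on it could have no window searched. That chromosome was not left out of the count over all windows. Each window held the 250 bases before a start. The half-site consensus is palindromic, so 1 search covered both strands. An exact half-site was found in 1 window of AEN and 1 of SESN1, against 5.57% of all 35116 windows. A pair meant 2 half-sites with at most 1 mismatch each, outside the central C and G, and at most 13 bases between them. Among the 6 genes with windows it was found only before the downstream starts of MDM2, against 1.57% of all windows. Those 2 windows of MDM2 overlap. The sequences are printed 5′ to 3′ on the gene's strand with the half-sites in capitals.
AEN, chr15:88621090-88621339, plus strand: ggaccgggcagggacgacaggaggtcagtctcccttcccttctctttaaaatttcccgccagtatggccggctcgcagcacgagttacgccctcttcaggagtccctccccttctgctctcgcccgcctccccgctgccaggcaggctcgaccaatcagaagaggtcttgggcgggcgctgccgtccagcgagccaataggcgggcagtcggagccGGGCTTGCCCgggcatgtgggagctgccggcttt
MDM2, chr12:68808774-68809023, plus strand: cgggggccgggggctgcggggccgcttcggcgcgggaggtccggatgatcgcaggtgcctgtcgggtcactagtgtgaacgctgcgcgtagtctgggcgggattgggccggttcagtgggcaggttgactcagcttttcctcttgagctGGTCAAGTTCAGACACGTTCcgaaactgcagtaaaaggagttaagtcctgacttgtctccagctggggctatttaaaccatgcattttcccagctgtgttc
SESN1, chr6:109009014-109009043, minus strand, 30 bases around the half-site: tcgtctGGACAAGTCTccacaagtcagaaa
A match describes these letters and is not evidence of binding. Bases beyond the 250 before a start, or after it, were not searched. A window without a match therefore does not show that a gene lacks p53 sites. The 3 genes whose windows held a match differed in their readout: the probe of AEN was 1.51-fold brighter on the CDR1AS array, while the log2 ratios of MDM2 (−0.02) and SESN1 (−0.16 and −0.10) lay within 1.5-fold.

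Across the 8 measured genes, GADD45A and AEN were higher on the CDR1AS array and the others stayed within 1.5-fold. The main values are log2 intensities after background correction and quantile normalization, and a log2 ratio is the CDR1AS array minus the control array. At or past 1.5-fold, 2 of the 8 genes were higher, where 2.61% of all measured genes were, and 0 were lower, where 2.22% were. At or past 2-fold, 0 were higher, where 0.755% of all measured genes were, and 0 were lower, where 0.575% were. The median log2 ratio of the 8 genes was 0.06, beside −0.00 over all measured genes, and 5 of the 8 were above 0, among them TP53INP1 by a bound only. These counts describe the arrays and are no evidence for the list, since its genes were proposed with results of these arrays known.

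**Figure D1:**
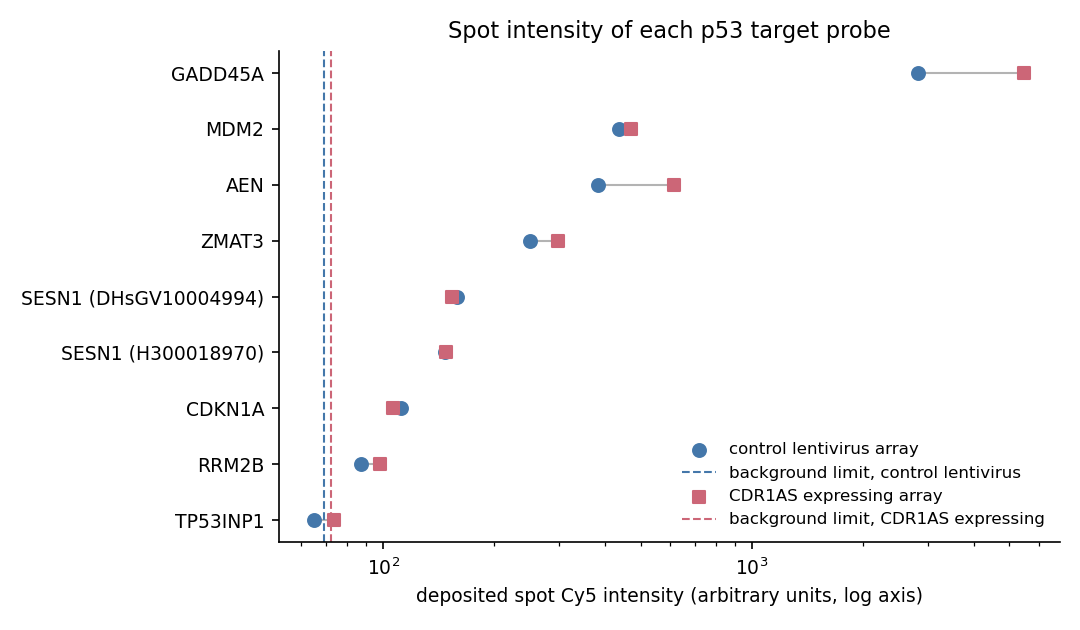
Deposited Cy5 spot intensity (arbitrary units, log axis) of each of the 9 probes, with circles for the control lentivirus array, squares for the CDR1AS array and dashed lines for each array's background limit. GADD45A and AEN show the widest gaps, and TP53INP1 lies at the limits of 69.1 and 72.1.

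Both arrays were read against blank spots. The background limit was the mean of 384 blank spots plus 2 SD, 69.1 for control and 72.1 for CDR1AS cells. Repeated spots of the array's positive controls show the spread within and between arrays. For Positive Control 1 (24 spots) the log2 ratio of spot intensities between the arrays was 0.10 ± 0.09 (median, SD over spots). For Positive Control 2 it was 0.58 ± 0.19, so a bright control probe itself differed by this much between the arrays before normalization. The sources used here do not say what this control detects. In 2001 genes with a pair of probes above background on both arrays, the log2 ratios of the pair differed by a median of 0.11, and by 0.35 at the 90th percentile. Of 14 measured markers of colon carcinoma epithelium, 13 were above background on each array. By the same count, 3 of 4 leukocyte and 3 of 6 fibroblast markers were above background on each array. Of 4 endothelial markers, 2 were for control and 4 for CDR1AS cells. The brightest epithelial marker, KRT18, read 56040 and 47565, but KRT20 (82.8 and 92.4) and CDX1 (83.2 and 83.4) were dim. LGALS4 (122 and 121) and CDX2 (170 and 109) were dim too, and CDH17 and CEACAM5 were above background on 1 array only. At or past 1.5-fold 1 of the 14 was higher and 1 lower, beside 2.61% and 2.22% of all measured genes. These were KRT19 (log2 ratio 0.83) and CDX2 (−0.82, but −0.35 with the local background subtracted). EPCAM had −0.54 and −0.76 by its probes (2.13 and −1.05 in that setting). Markers of other cells were all dim beside KRT18, though the brightest leukocyte and fibroblast markers read higher than the dim epithelial ones. The brightest of 4 leukocyte markers reached 201 and 203, that of 6 fibroblast markers 236 and 243, and that of 4 endothelial markers 138 and 135, while PTPRC, COL1A1, COL1A2 and COL3A1 were not above background on either array.

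GADD45A encodes a small nuclear protein that takes part in growth arrest at G2 and in stress signalling to MAP kinases. Its spot read 2828 for control and 5487 for CDR1AS cells, 40.9 and 76.1 times the background limits. The normalized levels were 11.50 and 12.36, a log2 ratio of 0.86 or 1.81-fold higher on the CDR1AS array. Of all measured genes, 1.11% had a log2 ratio at least as high. Bright genes vary more on this scale: among the 4171 brightest measured genes, 5.32% were at least 1.5-fold and 1.53% at least 2-fold higher. On the scale of the spots themselves the log2 ratio of GADD45A was 0.96, beside the 0.58 of Positive Control 2 on the same scale. In the authors' deposited value table GADD45A had 1316 for control and 2479 for CDR1AS cells, 1.88-fold higher.

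The other GADD45 genes encode closely related proteins. GADD45B, which is induced by TGF-beta and NF-kB signalling, read 382 for control and 897 for CDR1AS cells. Its log2 ratio was 1.14, or 2.21-fold higher. In the main setting it alone of the 17 measured paralogs was past 2-fold, where 0.755% of all measured genes were higher. After subtraction of the local background GADD45B had 0.74. In that setting 0 paralogs were higher and 2 lower past 2-fold, where 4.48% and 3.28% of all measured genes were. In the deposited values 3 were higher (GADD45B, GADD45G and CDKN1C), where 3.96% of all measured genes were. GADD45G read 68.9 and 82.5, which was above background on the CDR1AS array only, and was at least 1.16-fold higher. All 3 GADD45 genes therefore had values above 0, although the rule for background fixes the sign of GADD45G.

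AEN encodes a nuclease that p53 induces and that is known for a role in apoptosis, not in cell cycle arrest. Its spot read 382 for control and 617 for CDR1AS cells, 5.53 and 8.56 times the limits. The log2 ratio was 0.59, a 1.51-fold higher level on the CDR1AS array, which lies just past the 1.5-fold line at 0.58. Of all measured genes, 2.58% had a log2 ratio at least as high. In the deposited value table AEN had 151 and 251, or 1.66-fold higher. The log2 ratio of its spots was 0.69, beside the 0.58 of Positive Control 2. ISG20, which encodes a related nuclease induced by interferon, read 356 and 384 with a log2 ratio of 0.01, but −1.09 with the local background subtracted.

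The spots next to GADD45A and AEN on the array did not share their difference. Among spots within 2 columns and rows that were above background on both arrays, the median log2 ratio was −0.07 around GADD45A (12 spots) and 0.05 around AEN (19 spots). The deposited local background of GADD45A was 2305 for control and 2428 for CDR1AS cells, and that of AEN was 304 and 115. That column followed the spot's own brightness, with Pearson's r of 0.98 for control and 0.94 for CDR1AS cells over all gene spots on the log2 scale, where spots are not independent replicates. With this column subtracted the log2 ratio was 1.53 for GADD45A and 1.21 for AEN.

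**Figure D2:**
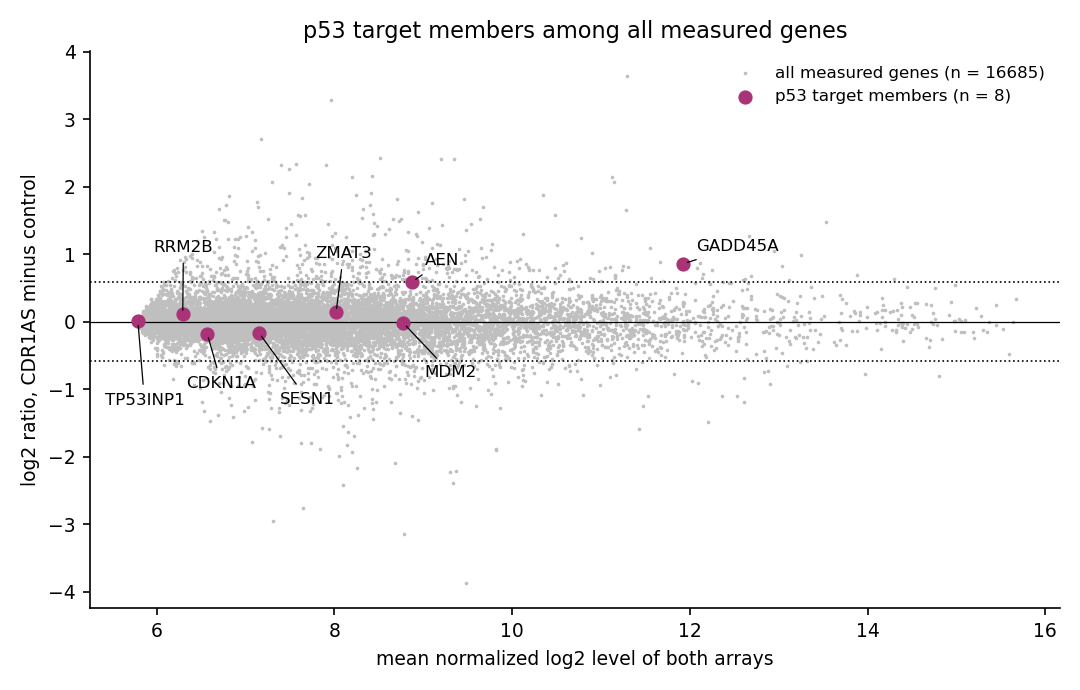
Log2 ratio (CDR1AS minus control) against the mean normalized log2 level of both arrays, with all 16685 measured genes in grey and the 8 p53 target genes in purple; dotted lines mark 1.5-fold. GADD45A (0.86) and AEN (0.59) lie on or past the upper line, and the other genes lie inside the main cloud.

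CDKN1A encodes p21, the inhibitor of cyclin-dependent kinases that carries much of p53's arrest of the cell cycle at G1. Its spot was dim on both arrays, at 111 for control and 106 for CDR1AS cells, or 1.61 and 1.48 times the limits. The log2 ratio was −0.18, which 15.5% of all measured genes matched or fell below. The deposited value table gave 21.7 and 16.9, 1.28-fold lower on the CDR1AS array. The offset added before the logarithm compresses the difference for a probe this dim.

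The other kinase inhibitors of the same family went both ways. CDKN1B, which encodes p27, read 211 and 182, with a log2 ratio of −0.33. CDKN1C, which encodes p57, read 135 and 217, with 0.63 or 1.55-fold higher, but 0.02 with the local background subtracted. Among inhibitors of the INK4 family, CDKN2B, which encodes p15, was 1.91-fold higher (0.93, spots of 230 and 463) and CDKN2A had 0.50. CDKN2D, of the same family, had −0.04 (spots of 271 and 286). With the local background subtracted CDKN2B, CDKN2A and CDKN2D were below 0 (−0.47, −1.11 and −1.08). In all, 1 of 19 measured genes of the cyclin-dependent kinase axis was higher past 1.5-fold and 0 lower, beside 2.61% and 2.22% of all measured genes. The median of the 19 was 0.03. Subtraction of the local background gave 2 higher and 8 lower past 1.5-fold, where 8.33% and 8.13% of all measured genes were. In the deposited values 3 of 20 were higher, where 10.3% of all measured genes were. In the main setting the lowest values of the axis were those of CCNE2 (−0.29), the replication clamp gene PCNA (−0.26) and RBL1 (−0.21). Its highest after the inhibitors was that of CCNE1, a cyclin of the step into S phase, with 0.31 and 0.37 by its probes. With the local background subtracted CCNE2 and RBL1 had values above 0 (0.19 and 0.02), PCNA had −2.19 and the CCNE1 probes had 0.07 each.

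MDM2 encodes the ubiquitin ligase that marks p53 for degradation and is itself a p53 target. Its spot read 438 for control and 469 for CDR1AS cells, well above the limits at 6.33 and 6.51 times. The log2 ratio was −0.02, with 177 and 183 in the deposited value table. Of all measured genes 44.4% had a log2 ratio at or below this. By its log2 ratio, not its brightness, MDM2 therefore lay near the middle of all measured genes. Only with the local background subtracted (247 and 323 at this spot) was it past 1.5-fold, at −0.88. Its partner MDM4 read 99.1 and 100.2, with a log2 ratio of −0.08.

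SESN1 encodes a sestrin, which limits oxidative stress and the growth kinase complex mTORC1. The brighter probe, DHsGV10004994, read 159 for control and 154 for CDR1AS cells, with a log2 ratio of −0.16. The other probe, H300018970, read 147 and 148, with −0.10. The probes differed by less than the median difference between probes of a gene, and both spots were about equally bright on the arrays. With the local background subtracted both values were 0.01. SESN2, a sestrin that stress pathways besides p53 also induce, read 134 and 200, with a log2 ratio of 0.52. SESN3 had 0.00 and 0.25 by its probes, both of them dim.

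ZMAT3, also called WIG1 and encoding an RNA-binding zinc finger protein, read 251 for control and 298 for CDR1AS cells. Its log2 ratio was 0.14, with 88.0 and 104.7 in the deposited value table, and −0.15 with the local background subtracted. Of its paralogs, ZMAT2 had −0.19 and ZMAT4 −0.05 (0.72 and 0.10 with the local background subtracted), while ZMAT1 was not above background on either array. RRM2B encodes the p53-inducible small subunit of ribonucleotide reductase, which supplies nucleotides for DNA repair. It read 87.1 and 98.2, only 1.26 and 1.36 times the limits, with a log2 ratio of 0.11. Its deposited values of 10.2 and 13.2 gave 1.29-fold higher. The median log2 ratio of the spots around it was 0.13 (20 spots), about the same as its own. Of the other subunit genes, RRM1 read 3505 and 3255 (−0.21) and RRM2 read 2475 and 2505 (−0.07, but −0.68 with the local background subtracted).

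TP53INP1 encodes a stress-induced protein of autophagy and p53 signalling. Its spot read 65.1 on the control array, below the limit of 69.1, and 73.6 on the CDR1AS array against a limit of 72.1. The bound on its log2 ratio was 0.01, so no difference was measured at this signal. In the deposited value table its control value was empty and its CDR1AS value was 1.9. TP53INP2 had a log2 ratio of −0.04. Of the BTG2 relatives, BTG1 read 4114 and 4452 (−0.01, but −4.21 with the local background subtracted), BTG3 had 0.22, TOB1 was lowest of all paralogs at −0.54 and TOB2 had 0.04, and BTG4 was not above background. Over the 17 measured paralogs the median was −0.00 (8 above 0, 9 below). Past 1.5-fold, 2 were higher (GADD45B and CDKN1C) and 0 lower, beside 2.61% and 2.22% of all measured genes. Subtraction of the local background gave 2 higher and 3 lower, where 8.33% and 8.13% of all measured genes were. In the deposited values 4 were higher, where 10.3% of all measured genes were.

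**Figure D3:**
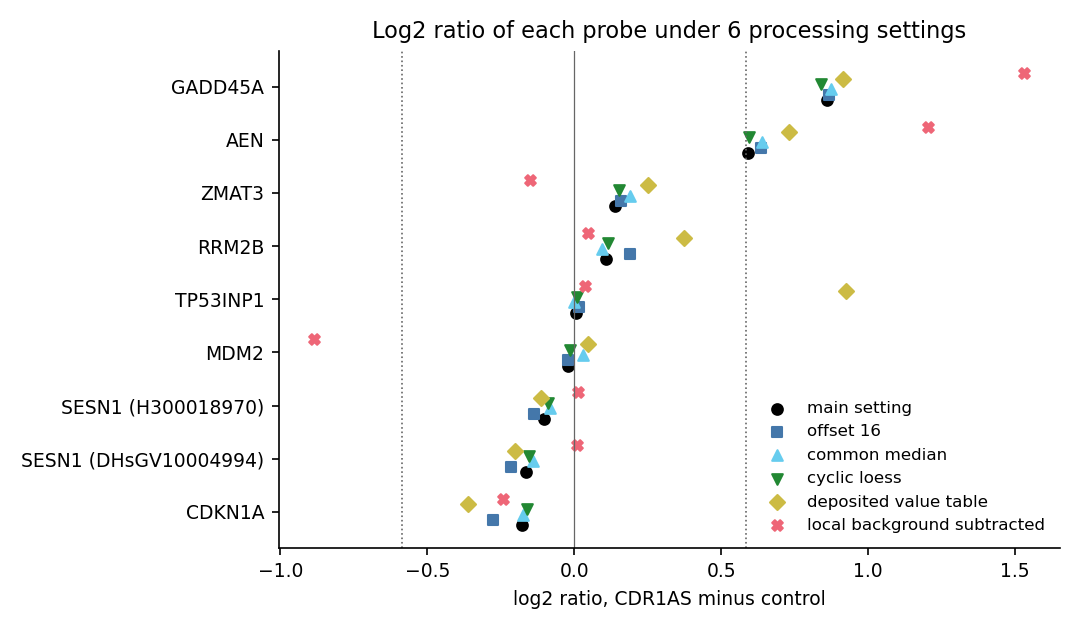
Log2 ratio (CDR1AS minus control) of each of the 9 probes under 6 processing settings, with dotted lines at 1.5-fold. GADD45A (0.84 to 1.53) and AEN (0.59 to 1.21) lie past the line in all 6, MDM2 passes it on the lower side with local background subtracted (−0.88), and TP53INP1 passes it in the deposited table (0.93), where the empty control value was set to the lowest listed value.

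The wider set of p53 genes held a few large differences around a middle near 0. Of 19 measured genes of the p53 family and its regulators, 11 lay above 0 and 8 below it (median 0.06). In either direction 0 were past 1.5-fold, where 2.61% of all measured genes were higher and 2.22% lower. Subtraction of the local background gave 4 higher and 2 lower, where 8.33% and 8.13% of all measured genes were. In the deposited values 1 was higher, where 10.3% of all measured genes were. The highest were CDKN2A (0.50), the ribosomal protein gene RPL5 (0.36) and the checkpoint kinase gene CHEK2 (0.27 and 0.15 by its probes). The lowest were the checkpoint kinase gene CHEK1 (−0.30) and the deubiquitinase gene USP7 (−0.21), both above 0 with the local background subtracted (0.82 and 0.20), and MDM4.

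Of 35 other p53 targets in arrest, repair and metabolism, 18 had values above 0 and 17 below it; the median was 0.00. PLK2, a polo-like kinase gene, read 104 for control and 376 for CDR1AS cells, 3.75-fold higher (1.91). Its log2 ratio was 0.88 with the local background subtracted and 2.96 in the deposited value table. The early response gene IER5 read 293 and 558, 1.79-fold higher (0.84), and SESN2 followed, but with the local background subtracted they had 0.17 and 0.06. The lowest were NINJ1 (−0.52), the 14-3-3 sigma gene SFN (−0.45), whose protein holds cells at G2, and RPS27L (−0.42), and with the local background subtracted these had −1.17, −0.83 and −0.97. Thus 2 of the 35 were higher past 1.5-fold and 0 lower, beside the 2.61% and 2.22% of all measured genes. Local background subtraction gave 6 higher and 6 lower, where 8.33% and 8.13% of all measured genes were. In the deposited values 4 were higher and 1 lower, where 10.3% and 6.91% of all measured genes were.

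Among 18 p53 targets in apoptosis, 9 lay above 0 and 9 below it (median −0.02). PMAIP1, the NOXA gene, had the highest ratio (2.41, spots of 284 and 1540, and 0.73 with the local background subtracted). TNFRSF10D, a decoy receptor gene for TRAIL, was 1.73-fold higher (0.79, spots of 95.1 and 165, but 0.15 with the local background subtracted), and SIVA1 was 1.59-fold lower (−0.67, spots of 1713 and 1162, and −1.62 in that setting). These were the 3 genes of this list past 1.5-fold, 2 higher and 1 lower, beside 2.61% and 2.22% of all measured genes. Local background subtraction gave 2 higher and 5 lower, where 8.33% and 8.13% of all measured genes were.

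The integrated stress response list, whose factors ATF4 and CHOP are known to act on GADD45A and SESN2 in other cells, had the highest median of the lists set beside the p53 targets in the main setting. Of its 14 measured genes 10 lay above 0 and 4 below it; the median was 0.29. With the local background subtracted it was −0.00037, below the 0.03 of the other arrest, repair and metabolic targets. Below 0 in the main setting were PSAT1 (−0.19), CEBPB (−0.11, but 1.90 with the local background subtracted), NUPR1 (−0.03) and ATF4. ATF4 had −0.01 by its brighter probe and 0.30 by the dimmer one. SESN2 (0.52) counts in this list, among the paralogs and among the other arrest, repair and metabolic targets. In the main setting 4 of the 14 were higher past 1.5-fold and 0 lower, beside 2.61% and 2.22% of all measured genes. The list was chosen with results of these arrays known. The 4 genes were PHGDH, which encodes the first enzyme of serine synthesis (2.16 and 1.83 by its probes), the CHOP gene DDIT3 (1.05), DDIT4 (0.85) and PPP1R15A, also called GADD34 (0.72). With the local background subtracted the dimmer PHGDH probe had 0.10, DDIT4 0.47 and PPP1R15A −0.17. In that setting 4 genes of the list were higher and 2 lower past 1.5-fold, where 8.33% and 8.13% of all measured genes were. The part of these genes in the difference of GADD45A was not tested.

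**Figure D4:**
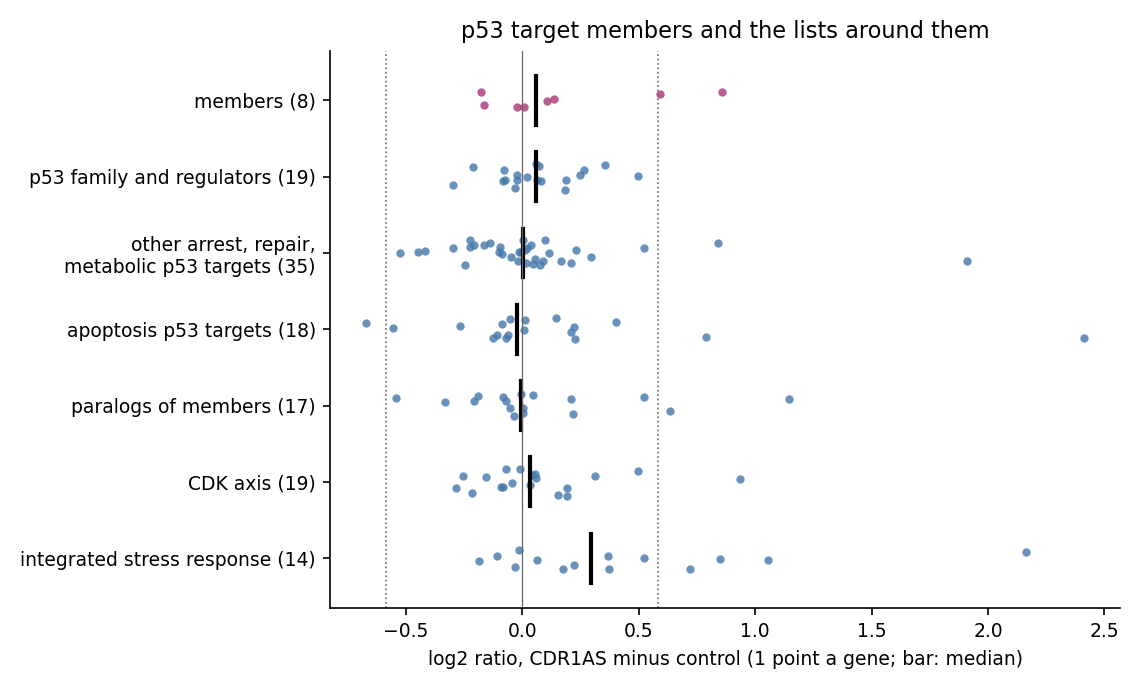
Log2 ratio (CDR1AS minus control) of each measured gene in the p53 target members and 6 lists around them, 1 point a gene, with the number of genes in brackets, a black bar at each median and dotted lines at 1.5-fold. The medians lie between −0.02 (apoptosis targets) and 0.29 (integrated stress response), with that of the members at 0.06.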

How the data were processed

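RNA of 1 control and 1 CDR1AS-expressing SW620 culture was amplified with amino allyl nucleotides and labelled with Cy5, per the labels' protocols. The deposited intensity of a spot is its median in the Cy5 channel, read at 3 scanner gains, per the file headers, with no background correction; the joining of the gains is not stated. Of 27456 positions 2412 were empty, and 1 gene probe with a quality flag was left out. The main values came from limma 3.58.1 in R 4.3.3: normexp without the local background column, offset 50, quantile normalization over both arrays, log2. The offset compresses folds of dim probes. The deposited value table is a straight line of the spot intensity on each array (largest residual 0.0559 units), linear, uncentred, with both medians at 25. In the platform annotation 21706 gene probes carried 1 symbol, 2753 carried none and 0 carried several. The brightest probe stood for a gene; where only 1 array was above background, the dim side was set to the lowest value above background and the fold is a bound. Named genes were all members, MDM4, all measured paralogs and, from each other list, genes past 1.5-fold or its 3 highest and 3 lowest. Members and lists were chosen with earlier results of these data known. The promoter search was added after the files were seen. Scripts were tested on simulated data. There were 8 alternatives: other offset, background, scaling (2), value table, filters (2) and probe choice.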

Additional observations from a re-analysis of the deposited data

How the results depend on the processing

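Under all 8 alternatives run, GADD45A and AEN stayed higher past 1.5-fold. For the 2 filters and the probe choice this was fixed in advance. Each of these genes has 1 probe well above background, so those settings reuse the main values (0.86 and 0.59). Only the changes of offset, background, scaling and value table could move them. Scaling to a common median, cyclic loess, no filter on dim probes and the median of a gene's probes moved none of the values by as much as the SD of repeated control spots (0.19), nor a count by over 1.5 times. With the local background subtracted the log2 ratio was 1.53 for GADD45A, 1.21 for AEN, −0.88 for MDM2 and −0.15 for ZMAT3, 1 member was lower past 1.5-fold, and the medians of the cyclin-dependent kinase axis and of the integrated stress response were −0.20 and −0.00037. In the deposited value table TP53INP1 had 0.93, RRM2B 0.37 and the members' median was 0.31, with 3 members higher past 1.5-fold, since that table has no offset and TP53INP1 is set there against the lowest listed value. The share of all genes past 1.5-fold also differed by setting: 8.33% higher and 8.13% lower with the local background subtracted, 10.3% and 6.91% in the deposited table, and 4.08% and 3.28% with an offset of 16. With 2 times the background limit on both arrays, 3.80% were higher and 3.69% lower. Past 2-fold the shares were 4.48% and 3.28%, 3.96% and 2.62%, 1.37% and 1.03%, and 1.01% and 0.879% in the same order. The causes of the other differences were not tested. No paired analysis was possible because each group is 1 array. CDKN1A, RRM2B and TP53INP1 lie close to the blank spots, so a change of these genes could be missed.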
